A study of Mus musculus with 24 samples.

Results

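The genes described here are 47 writers, erasers and partners of histone marks, including both Polycomb complexes. They were chosen by name from the 55401 genes of the deposited single-cell count tables, and all 47 were found there. By role, 5 belong to Polycomb repressive complex PRC2 (Ezh1, Ezh2, Eed, Suz12, Jarid2) and 4 to PRC1 (Bmi1, Ring1, Rnf2, Cbx7), and Kdm6b removes the PRC2 mark. The others are 8 H3K4 methyltransferases and a partner (Kmt2a to Kmt2e, Setd1a, Setd1b, Men1), 6 other demethylases (Kdm1a, Kdm2a, Kdm2b, Kdm4a, Kdm5a, Kdm5b), 4 H3K9 methyltransferases (Setdb1, Suv39h2, Ehmt1, Ehmt2) and 3 H3K36 or H3K79 methyltransferases (Nsd1, Setd2, Dot1l). The last groups are 6 acetyltransferases (Ep300, Crebbp, Kat2a, Kat2b, Kat6a, Kat8), 8 deacetylases (Hdac1 to Hdac5, Hdac7, Hdac9, Sirt1) and 2 subunits of the SWI/SNF remodeler (Smarca4, Arid1a).

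Histone tails carry methyl and acetyl groups that mark active or silent genes. PRC2 methylates lysine 27 of histone H3 through its catalytic subunit Ezh1 or Ezh2, PRC1 binds this mark and ubiquitinates histone H2A, and Kdm6b takes the methyl groups off. Acetyltransferases and H3K4 methyltransferases act at active promoters and enhancers, deacetylases remove acetyl groups, and H3K9 methyltransferases act at silent genes. In T cells, several of these enzymes are known to be needed for differentiation and for keeping a cell's identity.

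The study asked how liver invariant natural killer T cells (LiNKT), lymphocytes that see lipids on CD1d, change when NOD mice, an inbred strain prone to autoimmune diabetes, receive iron oxide nanoparticles coated with CD1d carrying the lipid αGalCer (αGalCer/CD1d-NP). Treated mice received 20 µg, 2 times a week for 5 weeks, and the methods of these assays give untreated NOD mice as controls. Elsewhere the study describes its controls as untreated or given control nanoparticles (Cys-NPs), and a figure caption names vehicle for the multiome. Single-cell RNA was measured with SmartSeq2 in plates (3 male mice a group, 13 to 15 weeks old), open chromatin with the 10X multiome (5 untreated and 4 treated male mice, 13 to 15 weeks old), and DNA methylation by whole genome bisulfite sequencing (7 untreated female mice of 17 weeks and 4 treated mice of 16 weeks, whose sex is not given in the sources used here). The methylome tables hold only the mean of each group, so that its difference in age, and any in sex, cannot be told apart from treatment. The study's methods speak of methylome replicates, whose own values were not used here. In the tables used here each assay has 1 sample or mean per group, in which the mice cannot be told apart, so that no difference between treatments has a replicate check and no p-value is given.

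The SmartSeq2 tables hold read counts without molecular identifiers. The cells used were 273 untreated and 251 treated ones, with a median of 635257 and 599896 reads and of 861 and 850 genes a cell, respectively. The 8 T and iNKT markers summed to 10235 counts per 1000000 reads (CPM) in untreated and 9969 in treated cells, and Il10, Il21, Lag3 and Pdcd1, genes of the treatment response, to 34.8 and 1971 CPM. Macrophage markers (Lyz2, C1qa, Csf1r) summed to 0.0116 CPM across 2 untreated cells and 1793 CPM across 11 treated ones. The 4 hepatocyte markers summed to 0 and 82.3 CPM, the 3 B cell markers to 0.0116 and 0 CPM, and the 3 liver endothelial markers to 1.05 and 24.4 CPM, with Cd79b, Ms4a1 and Stab2 at 0 in both groups. Cells with a marker of another cell type (hepatocyte, B cell, macrophage, Stab2 or Clec4g) numbered 3 untreated and 15 treated. The 16 proliferation genes summed to 487 CPM untreated and 828 CPM treated, and Mki67 had reads in 0 and 14 cells.

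The 47 genes together differed little in level between the groups. Their reads, summed over the cells of a group, came to 1684 CPM untreated (95% Poisson interval 1678 to 1691) and 1904 CPM treated (1897 to 1911), for a log2 ratio of 0.18. The cell names give 2 sequencing lanes, and the log2 ratio was 0.19 in the first and 0.18 in the second. A LiNKT cell had reads of few of these genes: 2.15 ± 1.61 of the 47 per untreated cell (SD over 273 cells) and 2.13 ± 1.56 per treated cell (251 cells). With each cell thinned to 200000 reads, which leaves out 6 untreated and 8 treated cells, the means were 1.95 and 1.93. At least 1 of the genes was read in 85.3% and 87.3% of the cells.

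Single genes were read in few cells, with a median share of 4.03% of untreated and 3.59% of treated cells. The highest shares were 15.4% for Kmt2e in untreated cells and 13.5% for Kmt2d in treated ones. By share of cells, 20 of the genes were higher in treated and 26 in untreated cells, and for 0 of them were the exact 95% binomial intervals of both groups apart (all genes with at least 10 reads 1.53%). These intervals, and those of CPM, cover counting error only. Per kb of exon, the highest levels were those of the deacetylase Hdac1 (20.8 CPM per kb in untreated and 29.4 in treated cells), of Kmt2e (24.0 and 14.0), and of the H3K9 methyltransferase Ehmt2 (22.3 and 13.9). The lowest were Suv39h2, with 0 reads in both groups in the cells used (the exact intervals allow up to 1.34% of untreated and 1.46% of treated cells with a read, and set no limit on cells that express it), Hdac9, with 0 untreated reads and 3 reads in 1 treated cell, and the PRC1 ligase Ring1 (0.22 and 0.41 CPM per kb).

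A gene was called where the log2 ratio of treated over untreated CPM, with 1 CPM added to both, was at least 1 or at most -1 and at least 10 reads were summed over both groups. Of the 45 genes with enough reads, 8 were called higher in treated cells, against 20.1% of all 15052 genes tested, and 9 were called lower, against 17.2%. The 8 are 17.8% of the 45 genes, and both counts are near the shares of all genes. The median log2 ratio was -0.02 as compared to 0.02 over all genes. In 13 of the 17 called genes, 1 cell held most of the reads of a group. The counts were therefore also taken among genes read in at least 5% of cells in either group, a choice made after seeing the data. There, 5 of 24 genes were called higher (Ezh1, Kdm6b, Kmt2d, Ehmt1, Hdac7; 20.8%, all genes 7.94%) and 2 lower (Setd1b, Kdm2a; 8.33%, all genes 7.90%). Ezh1 passed this filter in treated cells alone, and Setd1b and Kdm2a in untreated cells alone, in each case the group with the higher level, so that these counts are a description. Calls in the same direction in the sums and in each lane, also chosen after seeing the data, numbered 4 higher (Ezh1, Ezh2, Kdm6b, Ehmt1; 8.89%, all genes 5.88%) and 2 lower (Setd1b, Hdac5; 4.44%, all genes 5.47%).

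**Figure D1:**
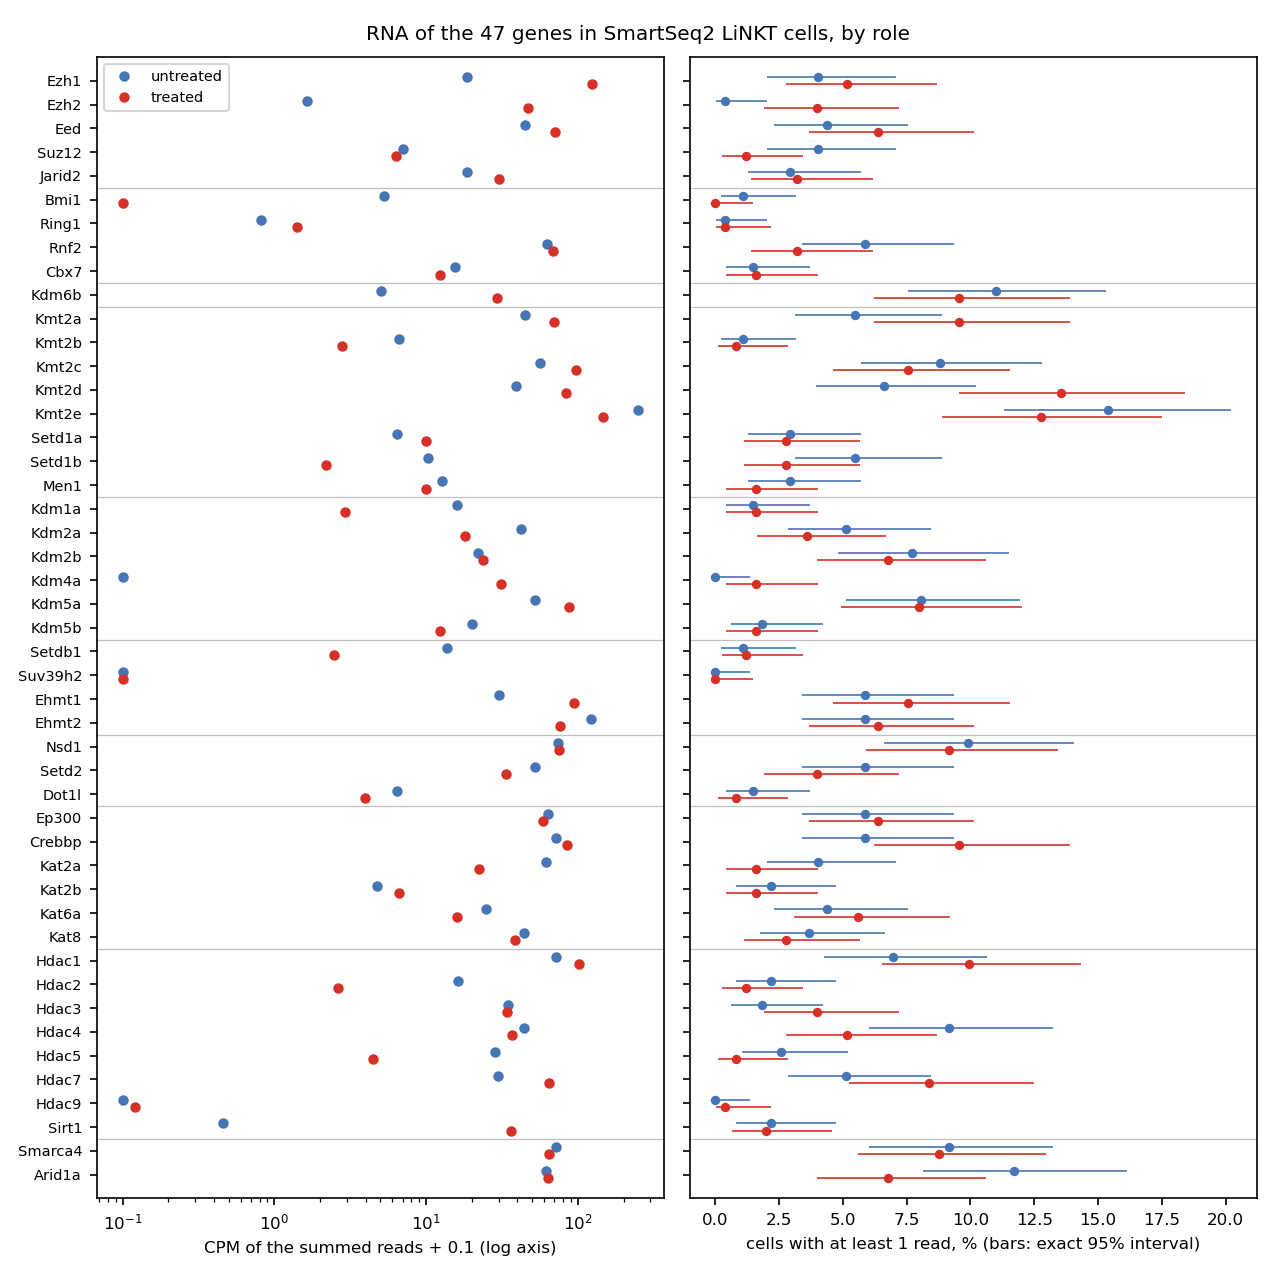
For each of the 47 genes, in order of role with grey lines between roles, the left panel gives the CPM of the summed reads plus 0.1 on a log axis and the right panel the percent of cells with at least 1 read with its exact 95% interval, untreated in blue and treated in red. Ezh1 (18.4 and 124 CPM) and Ezh2 (1.54 and 46.8 CPM) have the treated point far to the right in the left panel and Hdac5 (28.4 and 4.34 CPM) far to the left, while the bars of both groups overlap for every gene in the right panel.

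Among the groups of more than 1 gene, PRC2 had the summed log2 ratio farthest from 0. Its 5 genes listed here came to 90.4 CPM untreated and 278 CPM treated. This is a log2 ratio of 1.61, with 1.73 in the first lane and 1.44 in the second. Both catalytic subunits were called higher, and without them the other 3 listed subunits had a log2 ratio of 0.59. The latter was 0.42 and 0.96 in the lanes, 0.47 without the cells with a marker of another cell type and 0.38 without the cells with at least 4 of the proliferation genes, where PRC2 as a whole was at 1.43. The listed PRC1 genes, by contrast, summed to 84.0 and 82.2 CPM. These sums describe the listed genes and not whole complexes. Of further PRC2 subunits, Rbbp4 (229 and 184 CPM) and Rbbp7 (285 and 260 CPM) were lower in treated cells. Mtf2 (25.9 and 32.7 CPM) and Phf1 (15.9 and 25.1 CPM) were higher. Phf19 (0 and 14.6 CPM) was called higher and Aebp2 (19.3 and 4.53 CPM) lower.

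Ezh1, the catalytic subunit known from resting cells, had 18.4 CPM (17.7 to 19.0) untreated and 124 CPM (122 to 126) treated, for a log2 ratio of 2.69. It was 6.22 in the first lane and 1.58 in the second. About the same number of cells had Ezh1 reads, 11 of 273 and 13 of 251, but the median over these cells was 5 reads in untreated and 1423 in treated cells. These medians differed, but reads per cell overlapped, since 1 untreated cell held 48.7% of the untreated reads, 1545 reads. The intervals of the share of cells overlapped too, at 4.03% (2.03 to 7.10) and 5.18% (2.79 to 8.69).

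Ezh2, the catalytic subunit known from dividing cells, had 1.54 CPM (1.36 to 1.73) untreated and 46.8 CPM (45.7 to 47.9) treated, for a log2 ratio of 4.24. These reads came from 1 untreated cell and 10 treated cells, 0.37% (0.0093 to 2.02) and 3.98% (1.93 to 7.20). The counting intervals of the shares just overlap. Of the treated cells with Ezh2, 9 were in the first lane and 1 in the second. Of these 10 cells, 4 had Mki67 reads, 4 had reads of at least 4 of the 16 proliferation genes, and 0 had a marker of another cell type. Without the 7 treated cells with at least 4 proliferation genes, the log2 ratio of Ezh2 was 3.76. Neither Ezh1 nor Ezh2 lost its direction or its call in any other setting tried. For Ezh2, leaving out the cell with most reads removes the only untreated cell with reads, so that setting could not undo its call.

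The other 3 PRC2 subunits among the listed genes were not called. Eed, which reads the PRC2 mark, had 45.0 and 70.8 CPM in 12 and 16 cells, a log2 ratio of 0.64. Suz12, the scaffold of the complex, had 6.97 CPM in 11 cells and 6.28 CPM in 3 cells, with 98.8% of the treated reads in 1 cell. Jarid2, which guides PRC2 to chromatin, had 18.5 and 29.9 CPM in 8 cells of each group. Its log2 ratio of 0.66 was -1.98 in the second lane and -0.13 without the cells with a marker of another cell type. In PRC1, the ligase Rnf2 had 62.7 and 68.6 CPM and the mark reader Cbx7 had 15.4 and 12.3 CPM. Bmi1, a core subunit, was read in 3 untreated cells (5.18 CPM) and in 0 treated cells, with 60.3% of its reads in 1 cell. The share intervals of Bmi1 overlapped (0.23 to 3.18% and 0 to 1.46%), and its log2 ratio was -0.81 in the second lane.

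Kdm6b, the H3K27 demethylase among the genes listed here, had 4.93 CPM (4.61 to 5.27) untreated and 29.1 CPM (28.3 to 30.0) treated. Its log2 ratio was 2.34, with 1.21 and 4.57 in the lanes. Cells with reads were not more frequent, with 30 of 273 (11.0%) and 24 of 251 (9.56%). One untreated cell held 71.0% of the untreated reads, and with each cell weighted equally the log2 ratio was 1.52. The summed CPM of Ezh1 and Ezh2, which methylate H3K27, and of Kdm6b, which demethylates it, was thus higher in treated cells. These treated reads came from 13, 10 and 24 of the 251 cells, respectively. Both the higher and the lower calls among the genes were near the shares of all genes.

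**Figure D2:**
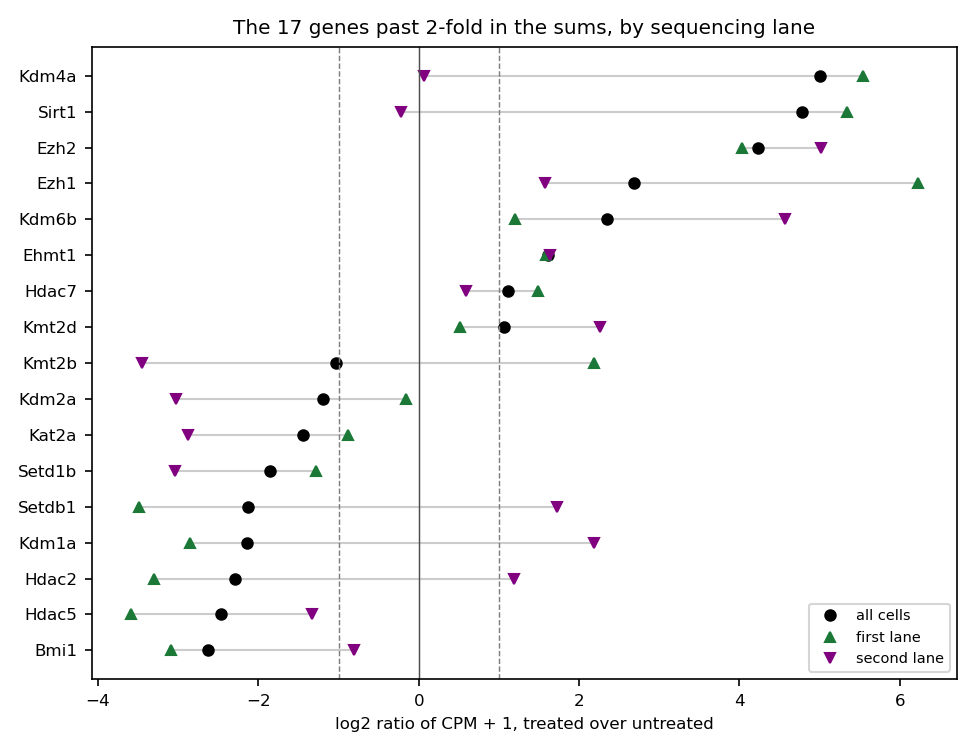
Log2 ratio of treated over untreated CPM, with 1 CPM added, of the 17 called genes, over all cells (black), in the first lane (green) and in the second (purple), with dashed lines at -1 and 1. Ezh1 (6.22 and 1.58), Ezh2 (4.03 and 5.02), Kdm6b (1.21 and 4.57) and Ehmt1 (1.59 and 1.64) are past 1 in both lanes, and Setd1b and Hdac5 are past -1 in both.

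The H3K4 methyltransferases and Men1 summed to 426 CPM untreated and 421 CPM treated. Kmt2d, which methylates H3K4 at enhancers, had 39.2 CPM (38.3 to 40.2) and 83.2 CPM (81.7 to 84.7), a log2 ratio of 1.07, and was read in 18 and 34 cells. Its share of cells was 6.59% (3.95 to 10.2) and 13.5% (9.57 to 18.4), or 4.12% and 11.9% with thinned cells. Kmt2d is close to the fold that was set. Its log2 ratio was 0.52 in the first lane, 2.27 in the second, 0.86 with every cell of the tables and 0.94 without the cells with a marker of another cell type.

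Setd1b, which with Setd1a provides H3K4 trimethylation at promoters, had 10.2 CPM (9.77 to 10.7) across 15 untreated cells and 2.11 CPM (1.88 to 2.35) across 7 treated ones, for a log2 ratio of -1.86. The lanes gave -1.28 and -3.04. Setd1a was not called, at 6.35 and 9.91 CPM. Kmt2e, a member of the family without clear methyltransferase activity, had the highest CPM of the 47 genes, with 250 CPM across 42 untreated cells and 147 CPM across 32 treated ones (log2 ratio -0.77). Kmt2a, which binds Men1, had 45.0 and 69.1 CPM in 15 and 24 cells, and Kmt2c 56.1 and 96.9 CPM in 24 and 19 cells. Kmt2b was called lower from 3 and 2 cells, with 97.0% and 90.3% of its reads in 1 cell.

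The other demethylases summed to 152 and 175 CPM. Kdm2a, an H3K36 demethylase that binds CpG islands, had 42.3 CPM (41.4 to 43.3) across 14 untreated cells and 17.9 CPM (17.2 to 18.6) across 9 treated ones, for a log2 ratio of -1.20. This rested on the second lane (-3.03), and the first lane gave -0.16. Its relative Kdm2b, which brings PRC1 to CpG islands, had 21.9 and 23.6 CPM in 21 and 17 cells. Kdm4a, an H3K9 and H3K36 demethylase, was read in 0 untreated and 4 treated cells (31.2 CPM), with 63.1% of the reads in 1 cell. The share intervals of Kdm4a overlapped (0 to 1.34% and 0.44 to 4.03%), and its log2 ratio was 0.06 in the second lane. Kdm1a, which acts on H3K4, had 15.9 and 2.84 CPM in 4 cells of each group, and its direction differed between the lanes (-2.85 and 2.19).

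Ehmt1, which methylates H3K9 together with Ehmt2, had 30.2 CPM (29.3 to 31.0) across 16 untreated cells and 94.3 CPM (92.8 to 95.9) across 19 treated ones, for a log2 ratio of 1.61. This was the called gene whose lanes were most alike, with 1.59 and 1.64. Ehmt2 was at 123 and 76.3 CPM in 16 cells of each group, a log2 ratio of -0.68 whose direction turned between the lanes (-1.77 and 3.46). Setdb1 was called lower from 3 cells of each group, with 93.8% of the untreated reads in 1 cell and a log2 ratio of 1.73 in the second lane. Of the H3K36 and H3K79 enzymes none was called, with Nsd1 at 74.3 and 74.9 CPM, Setd2 at 51.9 and 33.6 CPM, and Dot1l at 6.35 and 3.86 CPM in 4 and 2 cells.

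The acetyltransferases summed to 270 and 226 CPM, and Ep300 (63.4 and 58.5 CPM in 16 cells of each group) and Crebbp (71.2 and 84.9 CPM in 16 and 24 cells), the broad coactivators, were not called. Kat2a, of the SAGA complex, was called lower, with 61.9 CPM in 11 cells and 22.1 CPM in 4 cells, a log2 ratio of -1.45 that was -0.88 in the first lane. The deacetylases summed to 225 and 280 CPM. Hdac7, a class IIa deacetylase known from T cells, had 29.5 CPM (28.7 to 30.3) across 14 untreated cells and 64.8 CPM (63.5 to 66.1) across 21 treated ones, for a log2 ratio of 1.11. It was 1.49 and 0.59 in the lanes and 0.94 with each cell weighted equally.

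Hdac5, also of class IIa, had 28.4 CPM (27.7 to 29.3) across 7 untreated cells and 4.34 CPM (4.01 to 4.69) across 2 treated ones, for a log2 ratio of -2.46, with -3.59 and -1.33 in the lanes. Hdac4, of the same class, had 44.0 and 36.7 CPM in 25 and 13 cells. Hdac2 was called lower (16.2 and 2.52 CPM) and Sirt1 higher (0.36 and 36.2 CPM), each with most of its reads in 1 cell of a group (91.0% and 80.8%) and the opposite direction in the second lane. The remodeler subunits Smarca4 (71.1 and 64.3 CPM) and Arid1a (61.6 and 63.9 CPM) were not called, although Arid1a was read in 32 untreated cells (11.7%, 8.16 to 16.1) and 17 treated cells (6.77%, 4.00 to 10.6).

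In the sub-clusters that the study gave to the cells, the differences were not spread evenly. Sub-cluster 2 held 228 untreated and 61 treated cells, sub-cluster 4 held 43 and 133, sub-cluster 5 held 57 treated cells, and sub-cluster 3 held 2 untreated cells and is left out here. All 47 genes summed to 1691 and 1645 CPM in untreated sub-clusters 2 and 4, and to 2171, 1831 and 1823 CPM in treated sub-clusters 2, 4 and 5. Ezh1 was at 22.2 and 0 CPM in the untreated sub-clusters 2 and 4, and at 36.7, 219 and 0.03 CPM in the treated ones. In treated sub-cluster 2, 1148 of the 1209 Ezh1 reads were in 1 cell, and the level without it was 1.88 CPM. Treated sub-cluster 4 was at 180 CPM without its top cell, and untreated sub-cluster 2 at 11.4 CPM. Ezh2 was at 1.85 and 0 CPM, and at 0, 66.4 and 46.8 CPM, so that its treated reads lay in sub-clusters 4 and 5, in the latter with 99.9% of them in 1 cell. The proliferation genes summed to 487 and 508 CPM in the untreated sub-clusters. In the treated ones they summed to 45.0, 982 and 1197 CPM, and their part in the levels of Ezh2 was not tested.

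Kdm6b, at 1.62 and 21.9 CPM in the untreated sub-clusters, was at 41.7, 25.1 and 26.4 CPM in the treated ones. The 21.9 CPM of untreated sub-cluster 4 came from 3 cells, with 97.4% of the reads in 1 of them, and was 0.57 CPM without that cell. Without their top cells, untreated sub-cluster 2 was at 1.39 CPM and the treated sub-clusters at 6.70, 11.0 and 7.09 CPM. Kmt2d was at 46.4 and 0.64 CPM, and at 202, 26.7 and 97.5 CPM, or 29.0 and 0.15 CPM, and 146, 11.8 and 55.3 CPM, without the top cell of each. Hdac7 was at 32.1 and 1.77 CPM, and at 111, 13.4 and 133 CPM, or 22.7 CPM in untreated sub-cluster 2 and 59.4, 8.65 and 72.6 CPM in the treated ones without the top cells. Ehmt1 was at 32.3 and 0.64 CPM, and at 205, 89.3 and 7.23 CPM. The top cell held 28.2% of its reads in treated sub-cluster 2, and without the top cells untreated sub-cluster 2 was at 22.7 CPM and treated sub-clusters 4 and 5 at 65.2 and 0.08 CPM. In untreated sub-cluster 4, the reads of Hdac7 and of Ehmt1 were each from a single cell. The macrophage markers stood at 8102 CPM in treated sub-cluster 2 and at 0 in treated sub-clusters 4 and 5. Their part in the levels of Kmt2d, Hdac7 and Ehmt1 in treated sub-cluster 2 was not tested.

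**Figure D3:**
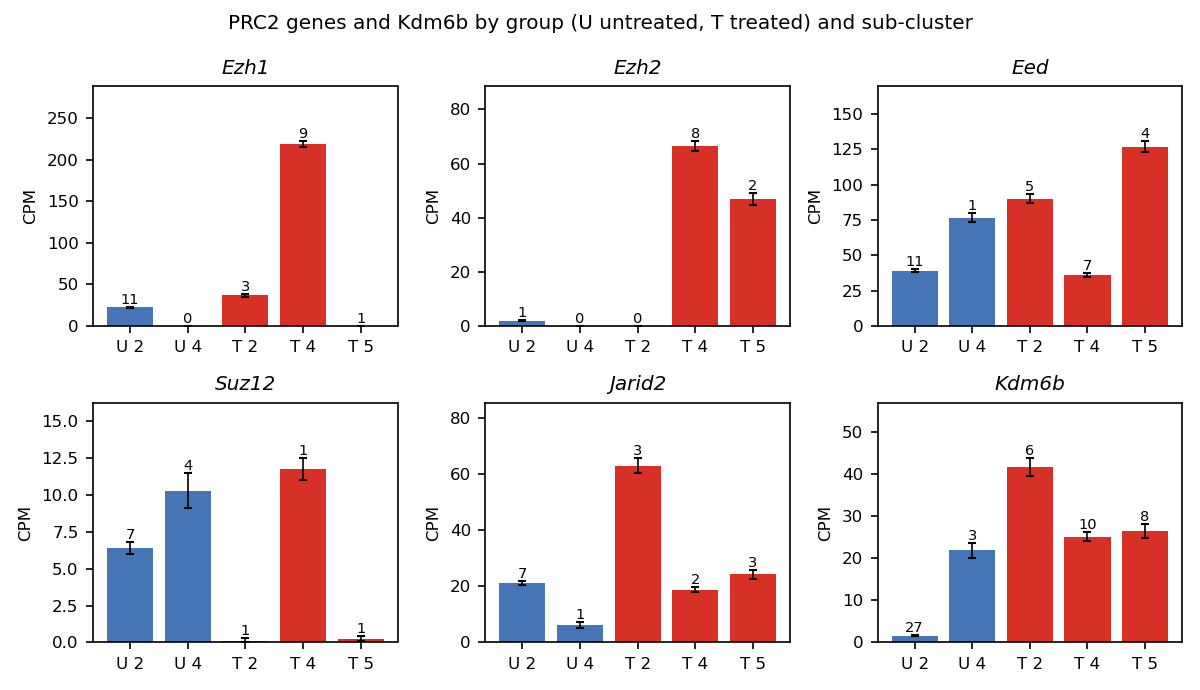
CPM of the 5 PRC2 genes and Kdm6b in sub-clusters 2, 4 and 5 of untreated (U, blue) and treated (T, red) cells, with 95% Poisson intervals (counting error only) as bars and the number of cells with reads above each. Treated sub-cluster 4 holds the highest Ezh1 (219 CPM) and Ezh2 (66.4 CPM), and in treated sub-cluster 2, at 41.7 CPM of Kdm6b, 84.4% of these reads are in 1 cell.

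Other chromatin genes, 67 further subunits and enzymes, summed to 3352 CPM untreated and 3006 CPM treated, with a median log2 ratio of -0.29. Of these, 8 were called higher and 16 lower (all genes 20.1% and 17.2%), but among the 22 read in at least 5% of cells in either group 0 were called higher and 3 lower (all genes 7.94% and 7.90%). Genes called lower there include Yaf2, a PRC1 partner (80.0 and 38.8 CPM), and the acetyltransferase Kat5 (57.5 and 24.8 CPM). Both passed the filter in untreated cells alone, with 21 and 5 cells for Yaf2 and 14 and 6 for Kat5. Their log2 ratios in the lanes were -1.39 and -0.43 for Yaf2 and -0.50 and -6.11 for Kat5. These calls are a description. In the sums and in both lanes, 4 were higher (Phf19, Pcgf2, Prdm2, Hdac6; all genes 5.88%) and 4 lower, among them Pcgf5, Kdm6a and Rcor1 (all genes 5.47%). Both counts of 67 are near the shares of all genes. Kdm6a, another H3K27 demethylase, had 50.9 CPM across 9 untreated cells and 1.80 CPM across 6 treated ones, for a log2 ratio of -4.21. It was lower in treated cells where Kdm6b was higher.

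DNA methylation near these genes was taken from the deposited regions of differential CpG methylation, which the study called between the groups, so that each region listed differs by construction. Each region has a mean methylated fraction per group and no coverage, so that its depth is unknown. Of the 47 genes, 11 (23.4%) had a region in the gene body or within 2 kb of the transcription start (TSS), against 6.30% of all 21938 protein-coding genes. In 8 genes these were hypo-methylated, that is lower in treated cells (all genes 4.20%), and in 3 hyper-methylated (all genes 2.63%). The genes are longer than others, with a median of 51839 bp as compared to 17425 bp. Among genes of at least that length, 37.5% of the members (9 of 24) and 16.9% of all genes had a region. None of the 13 regions came within 2 kb of the start of the gene record, where 0.871% of all genes had one. Another annotated transcript start lay within 2 kb of 5 regions, overlapping 1 of Kdm2b and at 802 bp in Hdac7, 854 bp in Dot1l, 1007 bp in Kmt2e and 1065 bp in another of Kdm2b.

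Sequences of 5 of these regions, chosen by name, are printed to show the CpGs over which the methylation differed. They are read from the forward strand of GRCm38.p6 (RefSeq), 5′ to 3′, up to 300 bases each. Of a longer region, the 300 bases with most CG dinucleotides outside the gene's exons are shown. Capitals mark each CG dinucleotide, whose cytosines are those counted here as CpG sites.
Ezh2 region, chr6:47561220-47561519: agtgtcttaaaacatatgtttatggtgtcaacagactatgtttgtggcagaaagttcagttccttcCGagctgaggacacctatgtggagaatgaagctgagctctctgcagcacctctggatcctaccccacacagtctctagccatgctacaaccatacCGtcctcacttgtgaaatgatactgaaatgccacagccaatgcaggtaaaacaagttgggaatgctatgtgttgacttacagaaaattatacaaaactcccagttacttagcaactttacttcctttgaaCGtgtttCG
Kmt2a region, chr9:44875633-44875932: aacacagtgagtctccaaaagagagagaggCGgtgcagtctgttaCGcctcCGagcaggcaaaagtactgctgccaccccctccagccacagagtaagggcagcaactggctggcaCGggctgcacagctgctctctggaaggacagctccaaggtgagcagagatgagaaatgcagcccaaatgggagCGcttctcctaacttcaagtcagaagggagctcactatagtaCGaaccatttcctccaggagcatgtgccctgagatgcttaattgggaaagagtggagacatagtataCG
Kdm2b region, chr5:122986036-122986335: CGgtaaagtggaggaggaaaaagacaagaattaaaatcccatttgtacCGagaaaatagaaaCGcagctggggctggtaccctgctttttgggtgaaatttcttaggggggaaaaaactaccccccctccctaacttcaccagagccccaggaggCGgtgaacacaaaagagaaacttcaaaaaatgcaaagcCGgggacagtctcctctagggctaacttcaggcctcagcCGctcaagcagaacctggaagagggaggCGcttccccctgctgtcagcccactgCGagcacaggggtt
Hdac7 region, chr15:97815665-97815901: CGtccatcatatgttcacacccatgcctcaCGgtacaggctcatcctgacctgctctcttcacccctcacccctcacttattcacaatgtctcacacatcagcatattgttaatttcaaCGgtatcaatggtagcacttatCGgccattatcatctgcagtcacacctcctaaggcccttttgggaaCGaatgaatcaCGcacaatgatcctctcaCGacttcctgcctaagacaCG
Arid1a region, chr4:133715994-133716293: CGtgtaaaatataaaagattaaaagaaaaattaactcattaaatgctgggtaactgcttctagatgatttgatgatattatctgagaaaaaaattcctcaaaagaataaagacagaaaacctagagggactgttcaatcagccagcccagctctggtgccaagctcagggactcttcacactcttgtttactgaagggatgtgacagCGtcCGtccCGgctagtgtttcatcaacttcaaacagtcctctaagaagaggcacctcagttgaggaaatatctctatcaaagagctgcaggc

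In these stretches the numbers of CG dinucleotides were 4 (Ezh2), 7 (Kmt2a), 8 (Kdm2b), 8 (Hdac7) and 4 (Arid1a). The mean methylated fraction of their sites in untreated and treated cells was 0.89 and 0.64 in the Ezh2 stretch, 0.68 and 0.50 in that of Kmt2a and 0.79 and 0.44 in that of Kdm2b. It was 0.86 and 0.42 in that of Hdac7, and 0.44 and 0.76 in that of Arid1a, the one of the 5 that gained methylation. Over the 13 regions, CG dinucleotides numbered 2.03 per 100 bases and the GC content was 46.8% (medians), close to 2.03 and 47.4% over all 2873 regions.

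The Ezh2 region (chr6:47561039-47561800, GRCm38) lay inside the gene, 33.5 kb from the TSS, with 132 of its 762 bases in an exon annotated as untranslated. Its 18 CpG cytosines, counted on both strands, had a mean methylation of 86.8% in untreated and 55.8% in treated cells, and 18 of 18 were lower in treated cells. Site by site the untreated fraction was 0.86 ± 0.091 and the treated 0.56 ± 0.21 (SD over sites of the group means, not over mice or replicates). Ezh2 is therefore a gene whose RNA was higher in treated cells and whose body held a hypo-methylated region.

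Among the H3K4 enzymes, Kmt2a had a region in an intron 5.02 kb from the TSS (chr9:44874667-44876281), with 76.4% and 51.9% methylation, where 39 of 44 sites were lower and 4 higher. Kmt2e had an intronic region (chr5:23479562-23479894) with 93.9% and 58.5%. Kmt2d had the opposite, a hyper-methylated region wholly in an exon and its untranslated part near the gene's end (chr15:98832626-98832940), with 14.7% and 56.6% and 14 of 14 sites higher. Kmt2d was called higher in RNA, so that its RNA and the methylation of this region were both higher in treated cells.

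Kdm2b was the gene with most regions, 3, all hypo-methylated. The first lay in an intron 94.7 kb from the TSS (chr5:122894342-122895089, 76.5% and 37.3%). The second overlapped coding exon bases and an annotated transcript start (chr5:122984523-122984972, 78.6% and 28.8%), and the third lay in an intron 3.28 kb from the TSS (chr5:122986036-122986542, 81.8% and 41.1%). Every one of their 22, 10 and 22 CpG sites was lower in treated cells. The RNA of Kdm2b was at 21.9 and 23.6 CPM.

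Dot1l, the H3K79 methyltransferase, had a hyper-methylated region of 60 CpG cytosines lying wholly in exons, with coding and untranslated bases (chr10:80792308-80793075), with 27.6% and 54.6% and 58 sites higher. Crebbp had a hypo-methylated intronic region (chr16:4201814-4202059) with 88.1% and 51.0%. Arid1a had a hyper-methylated intronic region (chr4:133715994-133716351) with 45.7% and 76.2%, and 10 of 10 sites were higher.

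The class IIa deacetylases had 3 hypo-methylated regions, all in introns. That of Hdac7 (chr15:97815665-97815901) went from 87.4% to 42.5%, with 16 of 16 sites lower. That of Hdac4 (chr1:92064525-92064728) was low in both groups, 15.8% and 3.64%. That of Hdac9 (chr12:34242871-34243076) stayed high, 96.9% and 85.0%. Hdac9 had too few reads to be tested in RNA. Of the other 10 genes with a region, 3 were called higher (all genes 20.1%) and 0 lower (all genes 17.2%). They were Ezh2 and Hdac7, with a hypo-methylated region, and Kmt2d, with a hyper-methylated one.

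**Figure D4:**
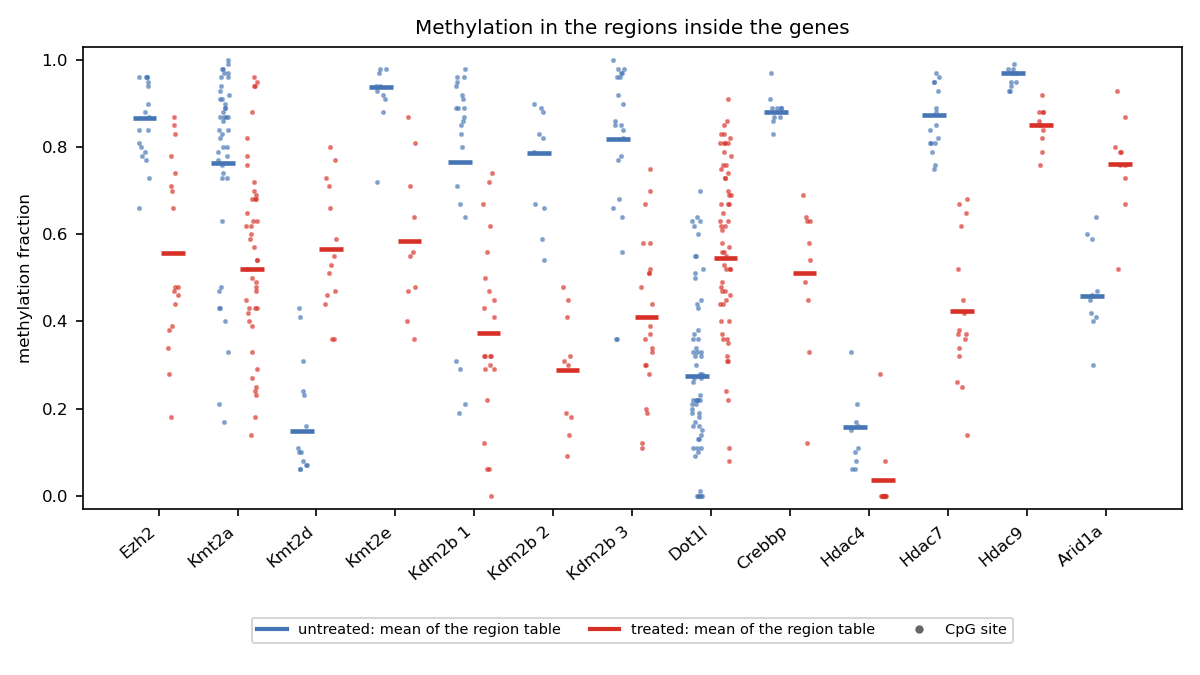
Methylated fraction in each of the 13 regions, untreated in blue and treated in red, with lines at the group means of the region table and points at single CpG sites; each value is a group mean, with no spread between replicates. The treated line is lower in 10 regions, as in Ezh2 (0.87 and 0.56), and higher in those of Kmt2d, Dot1l and Arid1a.

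Chromatin accessibility came from the multiome fragments, each carrying a cell barcode with the ending 1 or 2. Which ending is which group is not given in the sources used here, so the endings are compared with each other and not as treatments. Barcodes with at least 1000 fragments numbered 8565 and 7237, with 162817764 and 149740716 insertions, and 100 barcode sequences were shared by both endings. No doublet caller was run on them, and barcodes of up to 487765 and 527233 fragments were kept. The promoters of the 47 genes (2 kb on either side of the TSS) were open, with a median of 42.1 and 44.2 insertions per 1000000 (IPM), as compared to 9.26 and 9.87 over all promoters, and 44 of the 47 were above the median promoter. The most open was that of Kmt2e, with 195 and 187 IPM, read in 69.0% and 72.6% of the barcodes.

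These promoters differed little between the endings. The median ratio of ending 2 over ending 1 was 1.00, 45 of 47 were between 0.8 and 1.25, and the sums were 2312 and 2285 IPM. The share of all promoters in that range was not taken. Among promoters with insertions in both endings, the quartiles of the ratio were 0.959 and 1.05 for these genes. Over all promoters, which had a lower median of insertions, they were 0.929 and 1.23. At least 1.5 times higher were 0 promoters in ending 1 (all promoters 6.85%) and 2 in ending 2 (all promoters 16.1%). The 2 were Hdac9 (0 and 13 insertions) and Hdac4 (106 and 150 insertions, a ratio of 1.54), both nearly closed at the TSS of the gene record. The start of Hdac4 with most insertions, 15358 bp away, was open, with 19441 and 17901 insertions, a ratio of 1.00. Within 500 bp of the TSS of its gene record, Hdac4 had 25 and 24 insertions, a ratio of 1.04. The start of Hdac9 with most insertions had 23 and 30. Next in ratio at the TSS of the gene record was Hdac7, with 11.8 and 14.7 IPM, a ratio of 1.25. Its ratio was 1.09 within 500 bp of this TSS. At its start with most insertions, 13008 bp away, the direction turned (3718 and 3230 insertions, 0.945). The lowest ratios were those of Men1 (38.8 and 33.7 IPM, 0.868), Hdac2 (37.8 and 34.0, 0.898) and Arid1a (59.4 and 53.6, 0.903).

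The PRC2 promoters were open in both endings, those of called and of other genes alike. Ezh2 had 49.1 and 53.9 IPM (ratio 1.10), Ezh1 17.9 and 19.4, Eed 79.1 and 72.3, Suz12 43.5 and 46.9 and Jarid2 80.3 and 84.3. Kdm6b had 26.7 and 27.3. Suv39h2, with 0 RNA reads in the cells used, had 51.7 and 55.7 IPM. Over the genes, Spearman's rho between CPM per kb and promoter insertions was 0.19. This is a description over 47 genes, with RNA from SmartSeq2 and insertions from the multiome, which are separate libraries.

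Most regions of differential methylation inside the genes had ratios farther from 1 than most of the promoters. Most of these regions also held far fewer insertions than most promoters, so that the spread is not compared at like counts. Of the 9 hypo-methylated regions with at least 10 insertions, 6 were at least 1.5 times higher in ending 2 (all such regions 84.7%) and 0 in ending 1 (1.32%). Of the 3 hyper-methylated ones, 2 were higher in ending 1 (all such regions 60.0%) and 0 in ending 2 (4.45%). The region of Ezh2 had 185 and 516 insertions, a ratio of 3.03, read in 1.24% and 3.86% of the barcodes, and stood 12.7 times above its flanks 5 to 10 kb away. The Ezh2 promoter, with a ratio of 1.10, did not show such a difference.

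The 3 Kdm2b regions had ratios of 3.04, 3.88 and 3.53, with 123 and 344, 91 and 325, and 145 and 471 insertions, beside a promoter at 0.956. Hdac7 had 68 and 129 insertions (2.06) and Kmt2a 177 and 326 (2.00). The hyper-methylated regions of Arid1a (156 and 79 insertions, 0.551) and Dot1l (479 and 288, 0.654) were higher in ending 1, and that of Kmt2d was close to equal (698 and 548, 0.854). Hdac4 went against the other hypo-methylated regions with at least 10 insertions, with 2756 and 1767 insertions, a ratio of 0.697. It was also the most open of the regions, at 37.6 times its flanks, and the one with the lowest methylation in treated cells. The Kmt2d region stood at 17.2 times its flanks. The Kdm2b regions, by contrast, were at 0.96, 0.35 and 1.14 times their flanks. Those of Hdac7 (0.33), Kmt2a (0.11), Arid1a (0.62) and Dot1l (0.44) were below theirs. Kmt2e (13 and 17 insertions), Crebbp (13 and 16) and Hdac9 (5 and 1) had few insertions.

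**Figure D5:**
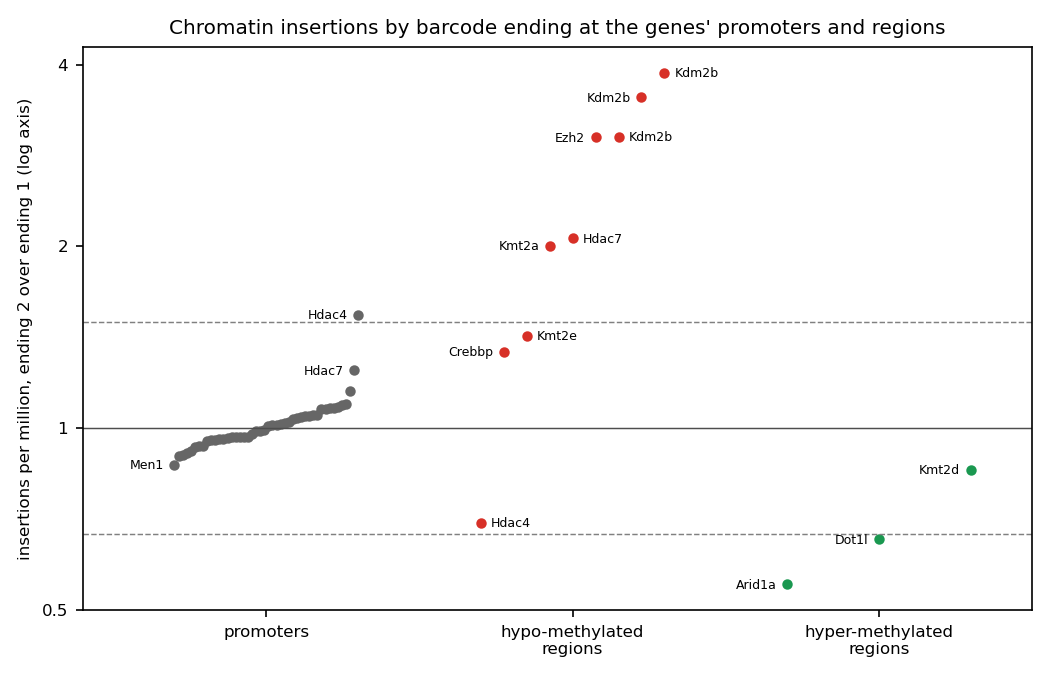
Ratio of insertions per 1000000, barcode ending 2 over ending 1, on a log axis, for the promoters and the regions of differential methylation of the genes; dashed lines mark 1.5 times either way. The promoter of Hdac9 (0 and 13 insertions) and its region (5 and 1) are not drawn. The other promoters lie near 1 except that of Hdac4 (1.54), the regions of Kdm2b and Ezh2 lie above 3, and those of Arid1a (0.551), Dot1l (0.654), Kmt2d (0.854) and the hypo-methylated one of Hdac4 (0.697) below 1.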

How the data were processed

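The SmartSeq2 tables hold whole read counts per gene and cell, which the authors made by mapping reads to GRCm38 with STAR. Reads were summed over the cells that the study's cell list gives a sub-cluster and scaled to CPM. Sums were called past a 2-fold ratio with a prior of 1 CPM. Of the 55401 rows, 55141 matched a GENCODE M21 gene. For the methylome, the deposited fractions are group means per region and per cytosine, made by the authors with BSMAP on mm10 and metilene. Its q-values and differences are the authors' own comparison and were not used. The 376954 cytosines of the site table include 58375 in a CpG. The deposited fragment list, with a read count per fragment (not used), is the output of Cell Ranger ARC, and each fragment end was counted as 1 insertion. Group labels came from the sample descriptions. Python 3.11.15, numpy 2.4.6, pandas 2.3.3, scipy 1.17.1, pysam 0.24.0, pyarrow 21.0.0 and edgeR 4.0.16 (TMM factors only) were used, and functions were tested on simulated data. The members and lists were chosen with earlier results of these data known. Genes were named by a rule: called members read in at least 5% of cells, members with a region, the PRC2 core and Kdm6b, and the 3 highest and lowest in level per kb and in promoter ratio. Other members were named after their values were seen. Alternatives changed the cells, weights, scaling, prior, filter, lane, CpG minimum, promoter window and start site. The bulk ATAC-seq, ChIP-seq and 10X RNA data were not analysed here, and some values of the list of other chromatin genes are not reported here.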

Additional observations from a re-analysis of the deposited data

How the results depend on the processing

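With 1 sample or mean per group, no result has a replicate check and mice cannot be told apart. No paired analysis was possible because each group has 1 sample or mean. The log2 ratio of the summed CPM, 0.18, was 0.095 with cells weighted equally, 0.16 with TMM factors, 0.19 in the first lane and 0.19 without cells with a marker of another cell type, a setting chosen after seeing the data. In place of 8 members called higher and 9 lower, the first lane had 10 and 11 (all genes 20.3% and 18.5%) and the second 14 and 12 (all genes 21.8% and 21.3%). Kmt2b turned to 0.076 without its top cells and to 2.19 in the first lane. In the second lane Kdm1a (2.19), Setdb1 (1.73), Hdac2 (1.19) and Sirt1 (-0.23) turned. With at least 20 CpGs a region, 2 genes in place of 8 had a hypo-methylated and 1 in place of 3 a hyper-methylated region. The shares of all genes under this minimum were not taken, so these counts cannot be set against them. Promoters higher in ending 2 numbered 1 with at least 5000 fragments, 1 within 500 bp and 0 at the start with most insertions, in place of 2. For these settings, too, the shares of all promoters were not taken. The log2 ratio of summed promoter insertions, -0.02, was -0.0039 when scaled to promoter insertions. Of the values for single called genes and regions under alternatives, 178 kept direction and side of the threshold, 16 kept direction only and 6 turned. This tally is no measure of robustness, since some of its values could not move. Dropping the minimum of summed counts leaves the ratio of a called gene unchanged. The region values compare averages over the same CpG sites and have no threshold. Coverage of the methylome and the group of each barcode ending are unknown.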
